A study of Arabidopsis thaliana with 19 samples.

Results

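Aquaporins are the channel proteins that let water, and in some subfamilies small uncharged solutes, cross plant membranes. The *Arabidopsis thaliana* family was taken as its 35 listed genes: 13 plasma membrane intrinsic proteins (PIP), 10 tonoplast intrinsic proteins (TIP), 9 NOD26-like intrinsic proteins (NIP) and 3 small basic intrinsic proteins (SIP). The members were listed by family membership, through their AGI codes, and not by any measured value. The family itself was chosen with earlier results of these data known. Of the 35 genes, 27 had a value among the 21313 genes of the expression table, 0.127% of it. The 8 others were not analysed here: AT2G37170, AT2G37180, AT4G35100 and AT2G16850 of the PIP2 group, and AT2G34390, AT1G31885, AT5G37810 and AT5G37820 of the NIP group. Transcript levels were measured on 19 ATH1 GeneChips with RNA from whole dormant seeds after 24 h in water. There were 5 arrays of Landsberg *erecta* (L*er*), the wild type, and 5 of NIL*DOG1*, and the lines NIL*DOG2*, NIL*DOG3* and NIL*DOG6* had 3 arrays each. A near isogenic line (NIL) carries a stretch of a donor genome at a *DELAY OF GERMINATION* (*DOG*) locus in an otherwise L*er* background. The donor was Cvi in the first 3 lines and Kas-2 in NIL*DOG6*, and each line also carries the donor alleles of the genes that flank its locus. In germination tests the paper gives NIL*DOG2* as less dormant than L*er* and the other NILs as more dormant. All arrays compared here are of dormant seeds, so that the genotype, not after-ripening, separates the groups.

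PIPs sit in the plasma membrane. PIP2 proteins form efficient water channels, and PIP1 proteins reach the plasma membrane largely in tetramers with PIP2 proteins. TIPs sit in the membrane of vacuoles, and the TIP3 proteins are those of the protein storage vacuoles of mature seeds. NIPs conduct solutes such as boric acid, glycerol and metalloids as well as some water, and SIPs are found in the endoplasmic reticulum. In a seed these channels bear on the uptake of water, on the fusion of storage vacuoles into a large central vacuole and on the cell expansion that ends in germination.

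The values are log2 levels from robust multi-array averaging (RMA), which scales the arrays to each other. The levels of different genes cannot be set against each other on this scale. No 2 arrays were identical, and array medians lay between 4.63 and 4.92. The 8 mature seed markers (cruciferins, oleosins, EM proteins and *ABI3*) had a mean level of 12.62 to 13.03 in every array, and none of them passed the test in any of the 7 comparisons between genotypes with all arrays. *EPR1*, expressed in the endosperm, lay between 12.8 and 13.6. The seed coat genes *BAN* and *TT10* had a mean level of 2.87 to 3.65, under the array medians. One array went against its label: over the 11 genes of chromosome 3 that marked the other NIL*DOG6* arrays, NIL*DOG6* replicate 1 had a median score of 0.0094 on a scale on which the L*er* mean is 0 and the mean of replicates 2 and 3 is 1. The main results for NIL*DOG6* are therefore given with and without this array, called the library labelled NIL*DOG6* replicate 1. Where no result without it is given, the array is included. The labels place RNA extraction both in seeds imbibed for 24 h and, in the extraction text, in dry seeds.

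Between genotypes, *PIP1;3*, *PIP2;5*, *NIP1;2* and *SIP2;1* were called with all arrays. Genes were called in limma where the p, adjusted by Benjamini-Hochberg over all 21313 genes, was under 0.05. Over the 7 pairwise comparisons 4 of the 27 genes were called at least once and 23 in none. Against L*er*, 1 gene was called in NIL*DOG1* (3.7% of the family, against 1.17% of all genes), 0 in NIL*DOG2* (0.305% of all genes), 2 in NIL*DOG3* (7.41%, against 2.88%) and 2 in NIL*DOG6* (7.41%, against 2.36%). All of these calls were lower in the NIL, as were 172 of the 250 genes called over the whole table in NIL*DOG1*, 469 of 614 in NIL*DOG3* and 299 of 502 in NIL*DOG6*. In NIL*DOG2*, where no member was called, 4 of the 27 had an unadjusted p under 0.05, against 6.78% of all genes. Such members numbered 4 in NIL*DOG1*, 3 in NIL*DOG3* and 5 in NIL*DOG6*, against 10.9%, 17.1% and 18.8% of all genes. Against NIL*DOG2*, 2 genes were called in NIL*DOG1*, 1 higher and 1 lower (2.56% of all genes), 1 in NIL*DOG3* (3.2%) and 1 in NIL*DOG6* (1.66%). Over the 5 genotypes the F test called 3 members (11.1%), against 6.39% of all genes. Without the library labelled NIL*DOG6* replicate 1, members called in NIL*DOG6* numbered 3 against L*er* (8.39% of all genes) and 2 against NIL*DOG2* (6.78%). The comparisons with L*er* share the L*er* arrays, and those with NIL*DOG2* share the NIL*DOG2* arrays. At the stricter adjusted p of 1e-04 no member was called in any comparison.

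The median difference of the family from L*er* was small in every line. The median log2 difference of the 27 genes from L*er* was 0.09 in NIL*DOG1* (0.02 over all genes) and 0.03 in NIL*DOG2* (-0.0033 over all genes). It was 0.02 in NIL*DOG3* (0.01 over all genes) and -0.05 in NIL*DOG6* (0.0095 over all genes). Because whole seeds were extracted, fewer cells of a type and less RNA per cell cannot be told apart in any of these differences. P-values measure the spread between the arrays of a genotype. The paper describes 3 replicates used for the arrays, each a bulk of plants. L*er* and NIL*DOG1* have 5 arrays each, and the origin of their replicates 4 and 5 is not given. Whether these came from bulks of their own is therefore not known.

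**Figure D1:**
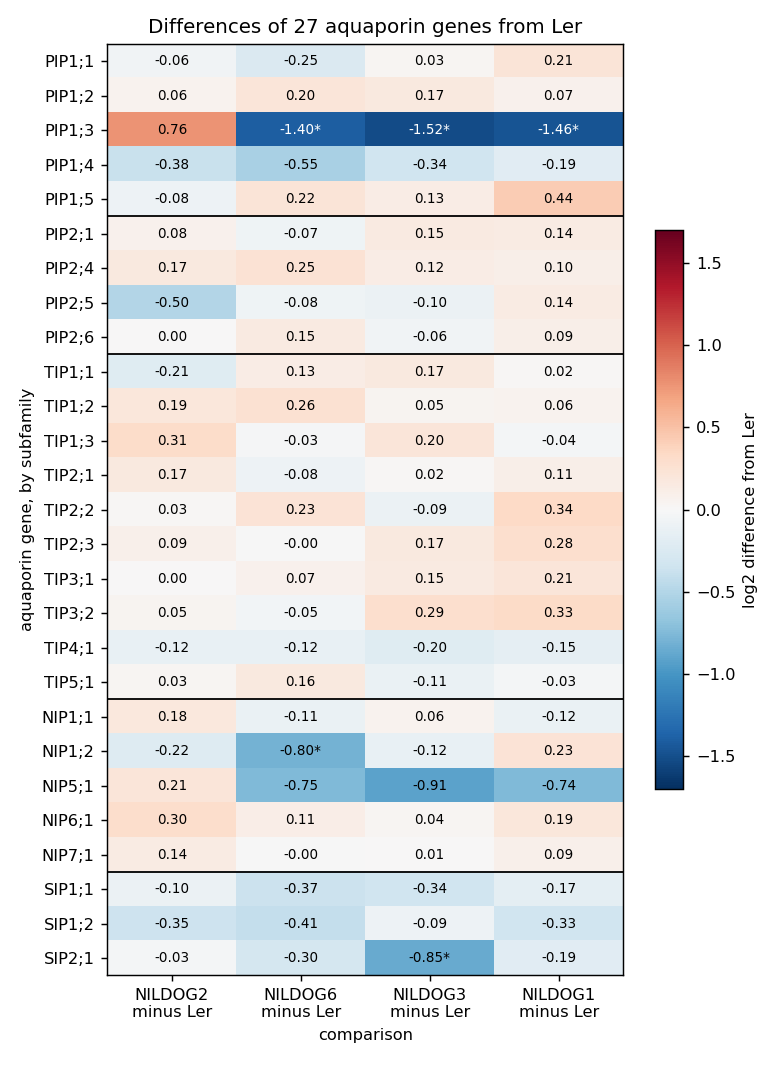
Log2 difference from L*er* of each of the 27 aquaporin genes (rows, by subfamily) in each NIL (columns), blue where lower and red where higher in the NIL. Asterisks mark an adjusted p under 0.05: *PIP1;3* in 3 lines, *NIP1;2* in NIL*DOG6* and *SIP2;1* in NIL*DOG3*.

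*PIP1;3* (AT1G01620), a plasma membrane water channel of the PIP1 group, differed most between genotypes. In L*er* its log2 levels were 6.19, 4.82, 5.46, 6.57 and 5.99, and in NIL*DOG2* they were 6.39, 6.93 and 6.37. In NIL*DOG1* they were 4.46, 4.51, 3.74, 4.56 and 4.44, and in NIL*DOG3* 4.58, 3.82 and 4.45. In NIL*DOG6* they were 5.44, 3.87 and 3.90. Every array of NIL*DOG1* and NIL*DOG3* lay below every L*er* array. In NIL*DOG6* the library labelled replicate 1, at 5.44, lay within the L*er* range and the other arrays lay below it. All arrays of the 3 more dormant lines lay below all NIL*DOG2* arrays, whereas NIL*DOG2* and L*er* overlapped.

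Relative to L*er*, *PIP1;3* was 2.76-fold lower in NIL*DOG1* (log2 difference -1.46, SE 0.31, 95% interval of the fold 1.76 to 4.32, adjusted p = 0.0207). In NIL*DOG3* the gene was 2.87-fold lower (log2 difference -1.52, SE 0.36, adjusted p = 0.0254), and in NIL*DOG6* 2.64-fold lower (-1.40, SE 0.36, adjusted p = 0.0435). Without the library labelled NIL*DOG6* replicate 1 the difference in this line was -1.92 on the log2 scale, 3.79-fold, with an adjusted p of 0.00233. NIL*DOG2* had a log2 difference of 0.76 from L*er* (95% interval 0.0094 to 1.51), which did not pass the test (adjusted p = 0.733). Against NIL*DOG2* the gene was 4.67-fold lower in NIL*DOG1* (adjusted p = 0.00129) and 4.86-fold lower in NIL*DOG3* (adjusted p = 0.00309). In NIL*DOG6* it was 4.47-fold lower (adjusted p = 0.00894), and 6.41-fold lower without the library labelled replicate 1 (log2 difference -2.68, adjusted p = 0.000284). The genotype means ran from 6.56 in NIL*DOG2* through 5.81 in L*er* to 4.40 in NIL*DOG6*, 4.34 in NIL*DOG1* and 4.28 in NIL*DOG3*. The last 3 means lay closer to each other than the spread within any of these lines (SD 0.34 to 0.90). The F test gave an adjusted p of 0.001.

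The calls of *PIP1;3* against L*er* depended on single arrays, and 2 of the 3 against NIL*DOG2* did not. When each of the 19 arrays was left out in turn, the NIL*DOG1* call was lost 4 times (without L*er* replicate 1, 4 or 5 or NIL*DOG1* replicate 3, adjusted p 0.0611 to 0.0782). The NIL*DOG3* call was lost 5 times (without L*er* replicate 1 or 4 or any NIL*DOG3* array, adjusted p 0.0576 to 0.187) and the NIL*DOG6* call 14 times (adjusted p 0.0503 to 0.217). All 14 of these fits kept NIL*DOG6* replicate 1. The NIL*DOG6* call held only without L*er* replicate 2, NIL*DOG1* replicate 3 or 4, NIL*DOG3* replicate 2 or NIL*DOG6* replicate 1. It was also lost when L*er* and NIL*DOG6* alone entered the fit (adjusted p = 0.208). That fit included NIL*DOG6* replicate 1 and called 0.0235% of all genes. The calls of NIL*DOG1* and NIL*DOG3* against NIL*DOG2* held in all 19 cases, and that of NIL*DOG6* was lost in 3 (without NIL*DOG2* replicate 2 or NIL*DOG6* replicate 2 or 3, adjusted p 0.0617 to 0.0709). That of NIL*DOG6* was also lost when it and NIL*DOG2* alone entered the fit (adjusted p = 0.0549). That fit included NIL*DOG6* replicate 1 and called 0.371% of all genes. *PIP1;3* is gene 54 of the 5496 placed on chromosome 1 in the RefSeq order. Among its 20 nearest genes, 10 on each side, 1 was called against L*er* in NIL*DOG2* (0.305% of all genes) and 1 in NIL*DOG3* (2.88%). In both cases this was AT1G01640, which was lower in NIL*DOG2* and higher in NIL*DOG3*. None of the 20 was called against L*er* in NIL*DOG1* (1.17% of all genes) or NIL*DOG6* (2.36%). Against NIL*DOG2*, 2 were called in NIL*DOG1* (2.56% of all genes), 2 in NIL*DOG3* (3.2%) and 1 in NIL*DOG6* (1.66%). All of them were higher, and the nearest stood 2 genes away. Donor alleles under the probes of a gene can change its signal, and their part in these differences was not tested.

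**Figure D2:**
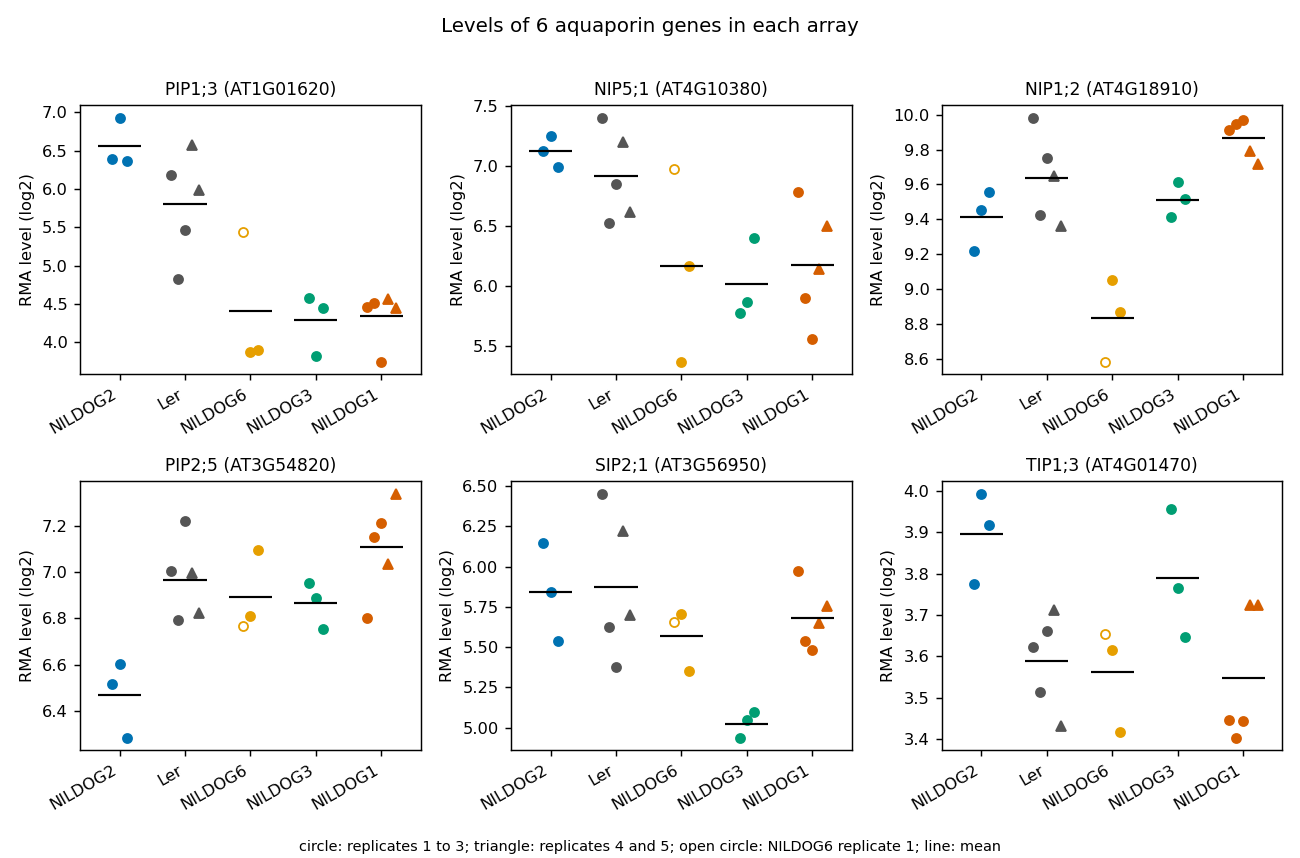
RMA log2 level in each array of the 6 aquaporin genes with the smallest p in the F test over genotypes, by genotype (lines are means, triangles replicates 4 and 5, and the open circle is NIL*DOG6* replicate 1). For *PIP1;3* all arrays of NIL*DOG1* and NIL*DOG3* lie below 4.82, the lowest L*er* array.

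The 4 other PIP1 genes were not called in any comparison with all arrays and no term but genotype. Their differences from L*er* lay between -0.55 and 0.44 on the log2 scale, with 95% intervals reaching from -0.91 to 0.76. At -0.55 stood *PIP1;4* (AT4G00430) in NIL*DOG6*, where all 3 arrays (6.92 to 7.17) lay below all L*er* arrays (7.52 to 7.75), with an adjusted p of 0.0886 (0.0473, and so called, without NIL*DOG1* replicate 2). At 0.44 stood *PIP1;5* (AT4G23400) in NIL*DOG1* (adjusted p = 0.237), where the arrays of both genotypes overlapped. *PIP1;5* was called in NIL*DOG1* against NIL*DOG2* with replicate set (replicates 1 to 3 or 4 to 5) as a term (0.60, adjusted p = 0.0479). It was also called there with replicate number as a block (0.60, adjusted p = 0.0489). *PIP1;2* (AT2G45960) kept to a range of 0.51 over the 19 arrays, from 9.40 to 9.91, and *PIP1;1* (AT3G61430) ran from 5.88 to 6.87. *PIP1;3* had a range of 3.19 over the arrays.

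Among the PIP2 genes, *PIP2;5* (AT3G54820), a water channel of the plasma membrane, separated NIL*DOG1* from NIL*DOG2*. Its levels were 6.80, 7.15, 7.21, 7.04 and 7.34 in NIL*DOG1* and 6.52, 6.61 and 6.28 in NIL*DOG2*. In L*er* they were 7.01, 6.79, 7.22, 7.00 and 6.82. The NIL*DOG2* arrays lay below all arrays of the other 4 genotypes. The gene was 1.56-fold higher in NIL*DOG1* than in NIL*DOG2* (log2 difference 0.64, SE 0.13, adjusted p = 0.0117), and the F test gave an adjusted p of 0.0459. Without NIL*DOG2* replicate 3 the difference was 0.55 and did not pass (adjusted p = 0.0951). The F test call survived the loss of L*er* replicate 2 or 5, NIL*DOG1* replicate 1, or NIL*DOG6* replicate 1 or 3. Leaving out any other single array removed it. Quantile normalization, a variance trend, replicates 1 to 3 alone, replicate set as a term and a replicate block also removed it. Median centring and the filter on the lowest genes kept it. NIL*DOG2* differed from L*er* by -0.50 (95% interval -0.78 to -0.22, adjusted p = 0.184). The gene thus stood low in NIL*DOG2*, the line in which *PIP1;3* had its highest mean. The 3 other PIP2 genes measured, AT3G53420 (*PIP2;1*), AT5G60660 (*PIP2;4*) and AT2G39010 (*PIP2;6*), differed from L*er* by -0.07 to 0.25 and were not called. The last 2 of these lay under the array median on every array. No detection calls were used, so that absence of their transcripts cannot be told from a low level.

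The TIP group was measured in full, and with all arrays in the 5-genotype fit none of its 10 genes was called in any comparison between genotypes. *TIP3;1* (AT1G73190), the alpha-TIP of protein storage vacuoles, was high on every array, between 12.77 and 13.37. Its levels in L*er* were 12.84, 13.34, 12.77, 12.83 and 12.96, and in NIL*DOG1* 13.26, 13.13, 13.37, 12.98 and 13.03. In NIL*DOG2* they were 13.06, 12.89 and 12.89, in NIL*DOG3* 13.12, 13.12 and 13.04, and in NIL*DOG6* 12.77, 13.17 and 13.11. The genotypes overlapped, and their means lay within 0.21 of each other. The difference of NIL*DOG1* from L*er* was 0.21 with a 95% interval of -0.04 to 0.45 (adjusted p = 0.564), and that of NIL*DOG2* was 6e-04 with an interval of -0.28 to 0.28.

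*TIP3;2* (AT1G17810), the second TIP3 gene of seeds, varied more between arrays than between genotypes. In L*er* it stood at 10.19, 11.54, 10.78, 9.67 and 10.21, a range that held the arrays of all other genotypes. In NIL*DOG1* the levels were 10.99, 10.81, 11.27, 10.55 and 10.40. In NIL*DOG2* they were 10.64, 10.49 and 10.44, in NIL*DOG3* 10.64, 10.93 and 10.73, and in NIL*DOG6* 9.88, 10.76 and 10.64. Differences from L*er* ranged from -0.05 in NIL*DOG6* to 0.33 in NIL*DOG1*, where the 95% interval was -0.21 to 0.86. In NIL*DOG2* the difference was 0.05 with an interval of -0.58 to 0.67. In both genes the library labelled NIL*DOG6* replicate 1 was the lowest of its line.

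**Figure D3:**
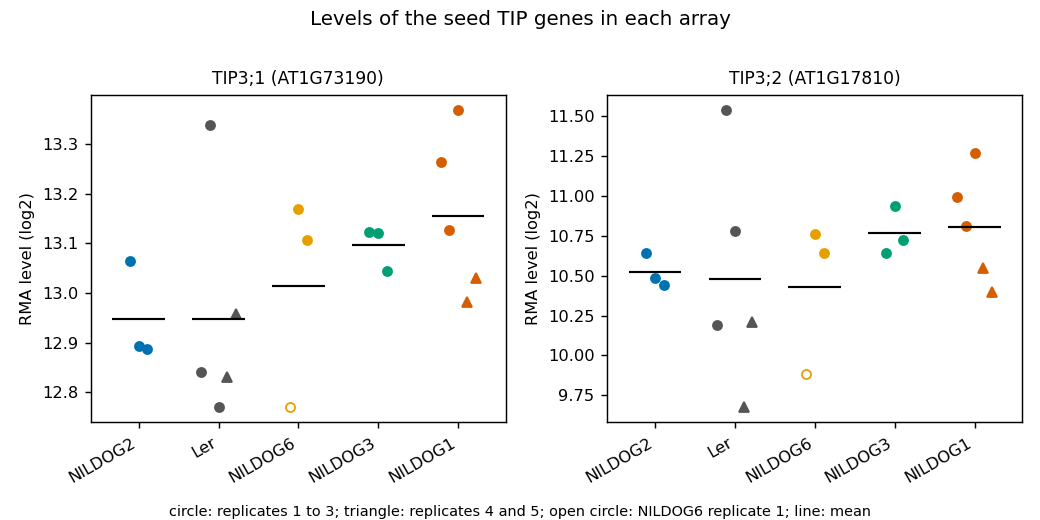
RMA log2 level of *TIP3;1* and *TIP3;2* in each array, by genotype (lines are means, triangles replicates 4 and 5, and the open circle is NIL*DOG6* replicate 1). The genotypes overlap, and *TIP3;2* in L*er* spans 9.67 to 11.54.

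*TIP1;3* (AT4G01470), known from pollen, was low throughout, between 3.40 and 3.99, under the median of every array. Its levels in NIL*DOG2* (3.99, 3.92 and 3.78) lay above those in NIL*DOG1* (3.45, 3.44, 3.40, 3.72 and 3.72), but the difference of -0.35 did not pass (95% interval -0.59 to -0.10, adjusted p = 0.138). It passed with replicates 1 to 3 alone (-0.47, adjusted p = 0.0368) and with replicate set as a term (-0.40, adjusted p = 0.0489). The 7 other TIP genes differed from L*er* by -0.21 to 0.34, and the smallest adjusted p among them was 0.395. Their 95% intervals reached from -0.55 to 0.70. *TIP1;1* (AT2G36830), the gamma-TIP of vegetative vacuoles, ran from 4.60 to 5.44 and lay above the array median on all but 3 arrays. AT3G26520, AT3G16240, AT4G17340, AT5G47450, AT2G25810 and AT3G47440 lay under it on all 19. Of these, *TIP1;2* (AT3G26520) was under the lower quartile of the array on 16 arrays and *TIP4;1* (AT2G25810) on 14.

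In the NIP group, *NIP1;2* (AT4G18910), a channel for solutes such as glycerol and for metalloids, was lower in NIL*DOG6* than in any other genotype by its mean. In NIL*DOG6* its levels were 8.58, 9.05 and 8.87, and in L*er* 9.98, 9.43, 9.75, 9.65 and 9.36. In NIL*DOG1* they were 9.91, 9.95, 9.97, 9.79 and 9.72. In NIL*DOG2* they were 9.22, 9.46 and 9.56, and in NIL*DOG3* 9.41, 9.61 and 9.51. All NIL*DOG6* arrays, the library labelled replicate 1 included, lay below all other arrays. Relative to L*er* the gene was 1.74-fold lower (log2 difference -0.80, SE 0.14, 95% interval of the fold 1.42 to 2.14, adjusted p = 0.00972), and 1.60-fold lower without that library (-0.68, adjusted p = 0.0117). The call held whichever of the 19 arrays was left out (adjusted p up to 0.0405). It was lost when only L*er* and NIL*DOG6* entered the fit (adjusted p = 0.137), where 0.0235% of all genes were called. Against NIL*DOG2* the difference of -0.58 did not pass (adjusted p = 0.0656). Nor did that of -0.45 without the library labelled NIL*DOG6* replicate 1 (adjusted p = 0.116). The F test gave 0.00177. The difference from NIL*DOG2* passed without L*er* replicate 1 (adjusted p = 0.0495) and with replicate set as a term (adjusted p = 0.042). With that term *NIP1;2* was also called higher in NIL*DOG1* than in NIL*DOG2* (0.54, adjusted p = 0.0255), as it was with replicate number as a block (0.54, adjusted p = 0.035). With all arrays and neither of these it was not called (0.46, adjusted p = 0.103). In contrast to *PIP1;3*, the gene was not called in NIL*DOG1* (0.23, adjusted p = 0.52) or NIL*DOG3* (-0.12, adjusted p = 0.734).

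Of the 20 genes nearest to *NIP1;2* on chromosome 4, 4 were called in NIL*DOG1* against L*er*, 2 higher and 2 lower (1.17% of all genes). In NIL*DOG1* against NIL*DOG2* 5 were called, 3 higher and 2 lower (2.56% of all genes). The nearest stood 1 gene away in both comparisons. In NIL*DOG6* against L*er* 1 was called (2.36% of all genes). The part of donor alleles in these differences was not tested for *NIP1;2*. Its close paralog *NIP1;1* (AT4G19030), an arsenite-permeable channel that stands 12 genes away, had a mean of 3.56 in L*er* and 3.44 in NIL*DOG6*, was not called and lay under the array median on every array. *NIP6;1* (AT1G80760), which moves boric acid in shoot nodes, and *NIP7;1* (AT3G06100), known from anthers, also lay under the median of every array. The 3 genes differed from L*er* by -0.12 to 0.30, with a smallest adjusted p of 0.687.

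*NIP5;1* (AT4G10380), the boric acid channel that roots use under low boron, had, like *PIP1;3*, its highest mean in NIL*DOG2* and its next in L*er*. Its levels were 7.13, 7.25 and 7.00 in NIL*DOG2* and 7.41, 6.53, 6.86, 7.20 and 6.62 in L*er*. In NIL*DOG1* they were 6.78, 5.90, 5.56, 6.14 and 6.50, in NIL*DOG3* 5.77, 5.87 and 6.40, and in NIL*DOG6* 6.97, 5.37 and 6.17. The arrays of the 3 more dormant lines lay below all NIL*DOG2* arrays, and those of NIL*DOG3* below all L*er* arrays. The library labelled NIL*DOG6* replicate 1, at 6.97, lay just below the lowest NIL*DOG2* array (7.00) and within the L*er* range. With all arrays and no block the gene was called in none of the 7 comparisons. The log2 differences of NIL*DOG1*, NIL*DOG3* and NIL*DOG6* from NIL*DOG2* were -0.95, -1.11 and -0.96 (adjusted p = 0.109, 0.0796 and 0.151). The differences of these lines from L*er* were -0.74, -0.91 and -0.75 (adjusted p = 0.234, 0.111 and 0.179), and the F test gave 0.06. With replicate number as a block the gene passed in NIL*DOG1* and NIL*DOG3* against NIL*DOG2* (adjusted p = 0.0462 and 0.049) and in the F test (0.0311). The F test also passed with a variance trend (adjusted p = 0.0408), without the lowest genes (0.0444) and with replicate set as a term (0.0457). With 1 array left out, it passed only without L*er* replicate 2, NIL*DOG1* replicate 1 or NIL*DOG6* replicate 1 or 2 (adjusted p 0.00871 to 0.0459). It did not pass with median centring, quantile normalization or replicates 1 to 3 alone.

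Without the library labelled NIL*DOG6* replicate 1, which stood at 6.97, *NIP5;1* passed in 4 of the 7 pairwise comparisons. It was then 2.23-fold lower in NIL*DOG6* than in L*er* (log2 difference -1.15, adjusted p = 0.021) and 2.57-fold lower than in NIL*DOG2* (adjusted p = 0.0156). NIL*DOG1* was 1.93-fold and NIL*DOG3* 2.16-fold lower than NIL*DOG2* (adjusted p = 0.0455 and 0.0299), and the F test gave 0.00871. The comparison of NIL*DOG3* with NIL*DOG2* also passed without NIL*DOG6* replicate 2 (adjusted p = 0.04). With only the genotypes compared in the fit, NIL*DOG1* and NIL*DOG3* passed against NIL*DOG2* (adjusted p = 0.0461 and 0.00212). Among its 20 nearest genes on chromosome 4 none was called in any comparison.

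**Figure D4:**
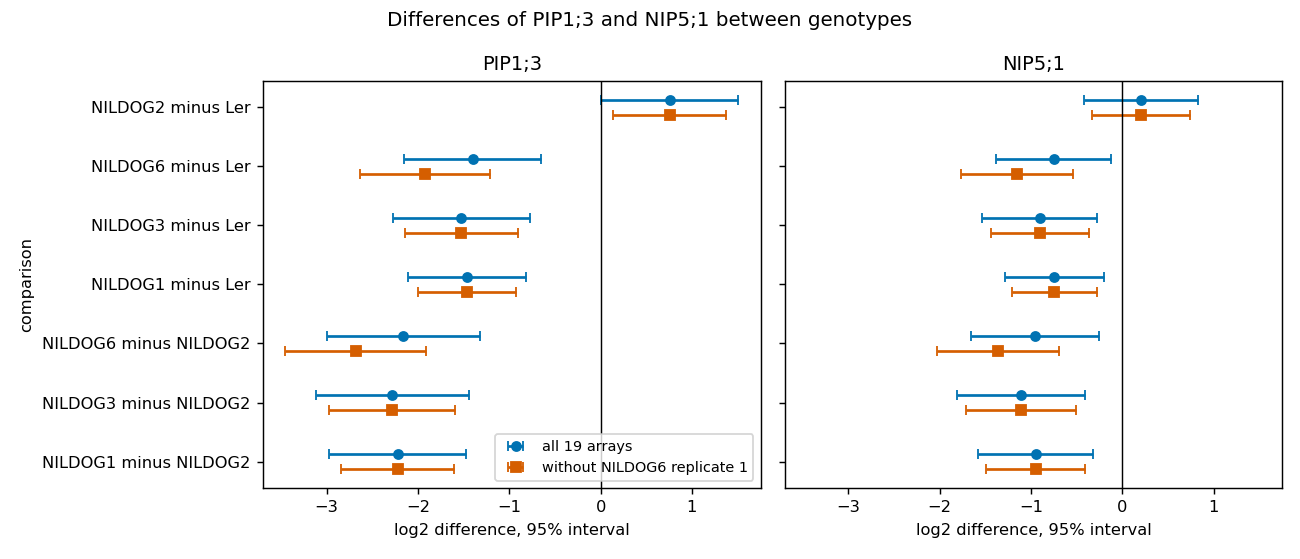
Log2 difference with its 95% interval in the 7 pairwise comparisons for *PIP1;3* (left) and *NIP5;1* (right), with all 19 arrays (circles) and without NIL*DOG6* replicate 1 (squares). For *PIP1;3* against NIL*DOG2* the circles lie between -2.28 and -2.16, and for *NIP5;1* between -1.11 and -0.95.

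Among the SIP genes, which encode channels of the endoplasmic reticulum, *SIP2;1* (AT3G56950) was lower in NIL*DOG3*. Its levels there were 4.94, 5.05 and 5.10, and in L*er* 6.45, 5.62, 5.38, 6.22 and 5.70. In NIL*DOG2* they were 6.15, 5.84 and 5.54, in NIL*DOG1* 5.98, 5.54, 5.48, 5.65 and 5.75, and in NIL*DOG6* 5.66, 5.71 and 5.35. The NIL*DOG3* arrays lay below all 16 others. The gene was 1.80-fold lower than in L*er* (log2 difference -0.85, SE 0.20, 95% interval of the fold 1.35 to 2.41, adjusted p = 0.0253). Against NIL*DOG2* the difference of -0.82 came to an adjusted p of 0.05, which by its further digits was not under the threshold. This difference passed without the lowest genes (adjusted p = 0.0396), with replicate set as a term (0.0461) and with only these genotypes in the fit (0.00836). With replicate number as a block it passed as well (adjusted p = 0.0198). It also passed without L*er* replicate 1, 2, 3 or 4, NIL*DOG2* replicate 3 or NIL*DOG6* replicate 1 (adjusted p 0.0241 to 0.0462). The call against L*er* was lost without L*er* replicate 1 or 4 or any NIL*DOG3* array (adjusted p 0.0631 to 0.114) and with these genotypes alone in the fit (adjusted p = 0.0708), and the F test gave 0.0653. None of its 20 nearest genes on chromosome 3 was called in NIL*DOG3*. *SIP1;1* (AT3G04090) and *SIP1;2* (AT5G18290) had differences from L*er* below 0 in all 4 lines, from -0.41 to -0.09, and were not called (smallest adjusted p 0.226).

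In L*er* and NIL*DOG1*, replicates 4 and 5 stand apart from replicates 1 to 3 in the order of deposit, and the labels do not say how. Over both genotypes 2.15% of all genes were called between these sets and none of the 27 aquaporins, of which 2 had an unadjusted p under 0.05. *TIP3;2* had a log2 difference of -0.72 (adjusted p = 0.108), with replicates 4 and 5 the lower, and was called only without L*er* replicate 1 (-0.85, adjusted p = 0.0408). For *PIP1;3* the difference between sets was 0.53 (adjusted p = 0.294). The difference of NIL*DOG1* from L*er* in *PIP1;3* was -1.26 within replicates 1 to 3 and -1.78 within replicates 4 and 5. With replicates 1 to 3 alone it did not pass (adjusted p = 0.297), nor did that of NIL*DOG3* (-1.21, adjusted p = 0.128) or NIL*DOG6* (-1.09, adjusted p = 0.134), whereas all comparisons of the gene with NIL*DOG2* did (adjusted p 0.00347 to 0.0113). *NIP1;2* in NIL*DOG6* also passed with these replicates alone (-0.89, adjusted p = 0.00626), and *SIP2;1* in NIL*DOG3* did not (-0.79, adjusted p = 0.0889). With replicate set as a term the call of *PIP1;3* in NIL*DOG6* against L*er* was lost (adjusted p = 0.0523).

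Genes that work with aquaporins were tested in the same fit. Of 11 genes for the trafficking, phosphorylation and turnover of aquaporins and for boron export, none was called against L*er*, and *BOR1* (AT2G47160), the boron exporter that acts with *NIP5;1* in roots, was lower in NIL*DOG1* than in NIL*DOG2* (log2 difference -0.71, adjusted p = 0.0235), 1 of the 11 (9.09%) against 2.56% of all genes. Its means were 3.82 in NIL*DOG1*, 4.27 in L*er* and 4.53 in NIL*DOG2*. Of the 11 plasma membrane proton pumps, *AHA2* (AT4G30190), which energises transport across that membrane, was lower in NIL*DOG3* than in L*er* (-1.42, adjusted p = 0.0186) and NIL*DOG2* (-1.75, adjusted p = 0.00782), in each case 9.09% of the list against 2.88% and 3.2% of all genes. No other AHA gene was called between genotypes in this fit. Of 23 measured genes for the vacuolar proton pumps, which energise the membrane that holds the TIPs, *VHA-c5* (AT2G16510) was lower in NIL*DOG3* than in L*er* (-0.82, adjusted p = 0.0248) and *VHA-a3* (AT4G39080) was lower in NIL*DOG1* than in NIL*DOG2* (-0.48, adjusted p = 0.0431), each 4.35% of the list against 2.88% and 2.56% of all genes. The median difference of the 23 pump genes from L*er* lay between -0.27 in NIL*DOG3* and -0.11 in NIL*DOG1*, and that of the 10 TIP genes between 0.03 in NIL*DOG6* and 0.10 in NIL*DOG3*.

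More of these genes were called in NIL*DOG6* when the library labelled replicate 1 was left out, as were 8.39% of all genes against L*er*. Of the 23 vacuolar pump genes 6 were then lower in NIL*DOG6* than in L*er*, among them the V-ATPase subunit genes *VHA-G1* (AT3G01390, log2 difference -1.04, adjusted p = 0.0437) and *VHA-c5* (-0.66, adjusted p = 0.0314). Of the 11 plasma membrane pump genes 3 were called in that comparison, *AHA4* (0.66, adjusted p = 0.039) and *AHA10* (0.53, adjusted p = 0.0122) higher and *AHA8* lower (-0.62, adjusted p = 0.017). *AHA10* was low, at 2.65 to 2.89 in L*er* and 2.82 to 3.32 in all NIL*DOG6* arrays. The lower quartiles of the arrays were 3.11 to 3.27. Of the 8 seed markers 1 was called, *EM1*, which was higher in NIL*DOG6* (0.64, adjusted p = 0.0441) and in NIL*DOG3* (0.65, adjusted p = 0.0286) than in L*er*. No TIP gene was called in any comparison without that library.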

How the data were processed

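RNA of whole dormant seeds was hybridised to ATH1 GeneChips, and the table deposited by the authors held log2 values after RMA, 1 per AGI code. The probe annotation and RMA version were not given in the sources used here. No column of the table belonged to other samples. Aquaporin genes and related lists were matched by AGI code, and were chosen with earlier results of these data known. Gene order and chromosomes came from RefSeq (TAIR10.1), which matched 21205 of the 21313 genes (99.5%).

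Genotypes were compared with limma 3.58.1 (lmFit, eBayes; R 4.3.3) in a linear model with 1 mean for each of the 5 genotypes, without a block or a filter, with Benjamini-Hochberg adjustment over all genes and a call at 0.05. The comparison of replicate sets used 10 arrays, all those of L*er* and NIL*DOG1*, with genotype as a term. Genes described by array were those called, the 6 with the smallest F test p and both TIP3 genes. Related lists were described by counts. The model was tested on simulated data. Alternatives were stricter thresholds, a filter on the lowest 30% of genes by mean level, median centring, quantile normalization, a variance trend, a replicate block, fewer arrays and, added after seeing the data, replicate set as a term. The number of arrays limits the precision.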

Additional observations from a re-analysis of the deposited data

Results flagged for a closer look

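In 54 groups of 5 arrays (27 aquaporin genes in L*er* and in NIL*DOG1*) the highest or lowest array was set against the others with Dixon's test, and 5 values stood apart. Chance gives about 1 in 20 such groups, 2.7 here. *PIP1;3* (AT1G01620) was at 3.74 in NIL*DOG1* replicate 3, with the others between 4.44 and 4.56. Without that array the gene differed from L*er* by -1.31 (adjusted p = 0.0744, limma). *SIP1;2* (AT5G18290) was at 4.85 in the same array, with the others between 5.16 and 5.24. In L*er* replicate 1, *PIP2;4* (AT5G60660) was at 3.54 (others 3.79 to 3.84) and *TIP5;1* (AT3G47440) at 2.90 (others 3.22 to 3.32). In L*er* replicate 3, *PIP1;2* (AT2G45960) was at 9.40, with the others between 9.70 and 9.77. The difference of NIL*DOG1* from L*er* was also compared between replicates 1 to 3 and 4 to 5 by an interaction term in limma. Of the 27 genes none was called (smallest adjusted p 0.995), and 3 had an unadjusted p under 0.05.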

How the results depend on the processing

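The counts of called aquaporin genes were 1, 0, 2 and 2 against L*er*, in the order of the line numbers, 2, 1 and 1 against NIL*DOG2*, 3 in the F test and 0 between replicate sets. At an adjusted p under 0.01 they became 0 in NIL*DOG1* and NIL*DOG3* and 1 in NIL*DOG6* against L*er*, and 1 in NIL*DOG1* against NIL*DOG2*. Under 1e-04 every count was 0. With replicates 1 to 3 alone the counts against L*er* were 0 in NIL*DOG1* and NIL*DOG3* and 1 in NIL*DOG6* (0.371%, 2.25% and 3.69% of all genes). With only the genotypes compared in the fit, they were 1 in NIL*DOG3* and 0 in NIL*DOG6* against L*er* (2.49% and 0.0235% of all genes). Against NIL*DOG2* they were then 3 in NIL*DOG3* and 0 in NIL*DOG6* (9.4% and 0.371%). Leaving out the lowest genes gave 2 in NIL*DOG3* against NIL*DOG2* (5.03% of the genes kept). With replicate set as a term, chosen after seeing the data, there was 1 in NIL*DOG6* against L*er* (6.49% of all genes). Against NIL*DOG2* there were then 5 in NIL*DOG1*, 2 in NIL*DOG3* and 2 in NIL*DOG6* (7.41%, 4.1% and 2.89%). The paper describes a randomized complete block design for the NILs, and the labels do not say whether replicate numbers mark its blocks. Same-numbered arrays of a NIL and L*er* had correlated deviations of -0.30 to 0.37. Without the like values for differently numbered arrays, these cannot decide whether replicate numbers pair the arrays. With the replicate block the counts against NIL*DOG2* were 5 in NIL*DOG1* (7.53% of all genes) and 3 in NIL*DOG3* (4.39%). The block added *NIP5;1*, *NIP1;2* and *PIP1;5* in NIL*DOG1* (adjusted p = 0.0462, 0.035 and 0.0489). In NIL*DOG3* it added *SIP2;1* and *NIP5;1* (0.0198 and 0.049). In the F test *NIP5;1* and *SIP2;1* were gained (0.0311 and 0.0309) and *PIP2;5* was lost, and the other counts stayed within 1.5 times. Leaving out 1 array at a time gave 0 to 1, 0 to 0, 0 to 2 and 1 to 3 against L*er*, 1 to 3, 1 to 3 and 0 to 2 against NIL*DOG2*, 2 to 5 in the F test and 0 to 1 between sets. Median centring and quantile normalization left the pairwise counts as they were. In the F test quantile normalization gave 2, with *PIP2;5* lost (6.21% of all genes). Before centring, the mean array median of NIL*DOG3* stood at -0.12 relative to that of L*er*, and the mean for NIL*DOG6* at -0.11. Centring removed these gaps and so raised the differences of both lines from L*er*. No called difference of a named gene changed sign under these alternatives. The 3 to 5 arrays a genotype limit the precision, and the cause of each lost or gained call was not tested.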
